A study of Mus musculus with 6 samples.

Results

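The Foxf1-Foxc2-Foxl1 cluster on mouse chromosome 8 and its paralogous cluster of Foxf2, Foxc1 and Foxq1 on chromosome 13 were examined for binding of GLI3R, the repressor form of the Hedgehog transcription factor GLI3. Peaks were taken from 2 deposited lists, one from doxycycline-induced cells and one from untreated cells, when their summit lay within 300 kb of a member gene. The members were Foxf1, Mthfsd, Foxc2 and Foxl1 on chromosome 8 and Foxq1, Foxf2 and Foxc1 on chromosome 13, which made 7 genes. This gave 19 of the 8019 peaks of both lists, of which 13 of 3640 came from the doxycycline list and 6 of 4379 from the untreated list. The peaks themselves chose the regions, so their numbers and heights are a description and carry no test.

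The cells were cardiac progenitors made from embryonic stem cells of the A2Lox.cre strain, harvested on day 6. The line, GLI3R-FTA, carried a tagged GLI3R, and the tag was captured on streptavidin beads, so a pull-down is aimed at the added protein and not the cells' own GLI3. Induced cells received doxycycline at 500 ng/ml from day 5, for 24 h, and control cells were the same line left untreated. The tagged protein was not induced in control cells, so untreated peaks are not taken as GLI3R binding. What they reflect was not tested. Each condition had 2 pull-downs and 1 input library, 6 libraries in all, but 1 peak list. No value below therefore has a replicate error, and differences between conditions are differences between 2 lists. The stated treatment speaks of GLI1 cells, whereas sample titles and the line's name say GLI3R, which is used here. Peak lists hold no expression, so the labelled cell type could not be checked against its markers.

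Hedgehog ligands act through GLI transcription factors, and without ligand GLI3 is cut to a repressor that holds target genes down. Forkhead genes of the Foxf and Foxl classes are known targets of this pathway in the mesenchyme of the gut and lung, where Hedgehog ligand from the epithelium reaches the mesoderm beneath it. Foxf1 encodes a factor of the splanchnic mesoderm needed for lung, gut and vessel formation. Foxc2 and its paralogue Foxc1 act together in the heart outflow tract, somites and vessels. Foxl1 marks mesenchymal cells beneath the gut epithelium, Foxf2 acts in palate and gut mesenchyme, and Foxq1 acts in hair and in the gastric lining. Mthfsd, which lies between Foxf1 and Foxc2, is not a forkhead gene and encodes a protein with a folate enzyme domain. In humans, deletions of a distant region upstream of FOXF1 that contains GLI-binding sequence cause a lung vessel disorder.

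Around the chromosome 8 cluster 9 peaks were called with doxycycline and 2 without. The window ran over 646 kb, and neither untreated peak overlapped a doxycycline peak. How often peaks overlap between the whole lists is not given here. This absence of overlap is therefore not read as a trait of the region. The doxycycline peaks made up 0.247% of their list (95% Clopper-Pearson interval 0.113 to 0.469%, covering counting error only), and the untreated peaks made up 0.0457% of theirs (0.00553 to 0.165%). The intervals here and below leave out that the peaks chose the regions, and they do not compare the lists. Of the 9 doxycycline peaks, 7 had a −log10 q (the caller's adjusted significance within its own list, higher being stronger) of at least 5. That level was reached by 33.3% of the doxycycline list. Of the 2 untreated peaks 0 reached it, against 9.41% of the untreated list. Several of the 7 passed narrowly, tied at 5.34 with 8 fragments, and the doxycycline peaks below the level, at 4.43, also had 8 fragments. Of the 9 doxycycline summits, 6 lay on the low-coordinate side of Foxf1, towards Irf8, a gene of myeloid cells, and 3 lay beyond Foxl1. None of the 9 lay inside a protein-coding gene. The member genes cover only a small part of the window, and the share of all doxycycline peaks inside such genes is not given here. This is therefore not read as a trait of the region.

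The highest peak lay far from the genes, at chr8:120831943-120832449, 252.2 kb from Foxf1. Its summit was enriched 17.5-fold over the local expectation, at a −log10 q of 29.1, with 23 fragments piled over it. By −log10 q it ranked 48 of 3640 in the doxycycline list. A neighbour 4.40 kb away, at chr8:120827686-120827885, reached 10.2-fold with 13 fragments and ranked 243. These 2 summits form a pair at the outer edge of the window. Their nearest protein-coding gene was Irf8, at 75.5 kb and 71.1 kb, so they lie closer to Irf8 than to any forkhead gene. The third peak on that side, at chr8:120912612-120912763, had 6.01-fold enrichment and 8 fragments, and with 156.0 kb to Irf8 and 171.7 kb to Foxf1 it was also nearer to Irf8.

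Between that point and Foxf1 stood a second pair of summits, 2.70 kb apart, at chr8:120937551-120937849 and chr8:120940327-120940535. Both were enriched 6.58-fold with 8 fragments, and Foxf1, at 146.7 kb and 144.0 kb, was their nearest protein-coding gene. The peaks beyond Foxl1 were led by chr8:121229666-121229930, at 12.6-fold with 18 fragments, rank 113 and 99.2 kb from Foxl1. After it came chr8:121279431-121279581, at 6.01-fold with 8 fragments and 148.9 kb from Foxl1, and chr8:121301061-121301256, at 8.04-fold with 10 fragments and 170.5 kb from Foxl1. The strongest peaks of the cluster thus flanked the genes on both sides at a distance.

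**Figure D1:**
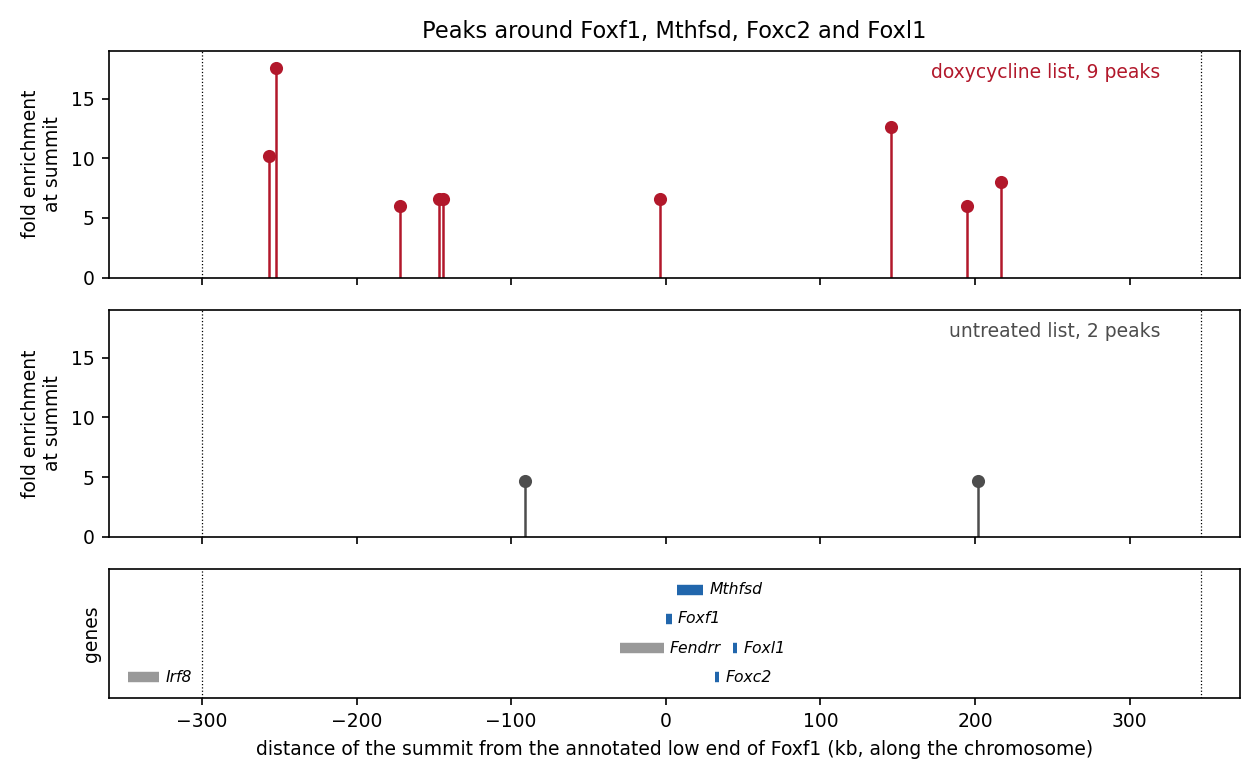
Peaks around the chromosome 8 cluster. The x axis gives the distance of each summit from the low-coordinate end of Foxf1 in kb, the y axis the authors' fold enrichment, with the doxycycline list above the untreated list and genes at the bottom (blue, members; grey, Fendrr and Irf8; dotted lines, the edges of the window). The 9 doxycycline peaks stand between 6.01-fold and 17.5-fold on both sides of the genes, and the 2 untreated peaks stand at 4.68-fold and 4.70-fold.

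A single doxycycline peak lay close to the genes, at chr8:121080753-121080955. It was enriched 6.58-fold with a −log10 q of 5.34 and 8 fragments. Its summit fell inside Fendrr, the long noncoding RNA gene whose start faces Foxf1 and which is known for its role in the lateral mesoderm and heart of the mouse embryo. It lay 2.29 kb inside the annotated start of Fendrr, 3.56 kb from Foxf1, 10.8 kb from Mthfsd, 35.3 kb from Foxc2 and 46.9 kb from Foxl1. All 4 members thus had this 1 summit within 50 kb, which is 1 observation and not 4. A doxycycline summit that close was found for 20.0% of the 21887 protein-coding genes.

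The untreated list had no summit within 50 kb of Foxf1, Mthfsd, Foxc2 or Foxl1, against 18.8% of all genes with one. Its 2 peaks in the window were chr8:120993465-120993749, at 4.68-fold and 90.9 kb from Foxf1, and chr8:121285995-121286160, at 4.70-fold and 155.5 kb from Foxl1. Each had 5 fragments, the median of the untreated list. The closest approach of the lists was 6.63 kb, between the second of these and the 6.01-fold doxycycline peak beyond Foxl1. The local expectation ran from 0.368 to 0.509 fragments at the 9 doxycycline peaks, against a usual 0.368 in that list, and from 0.276 to 0.283 at the 2 untreated peaks, against a usual 0.272.

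**Figure D2:**
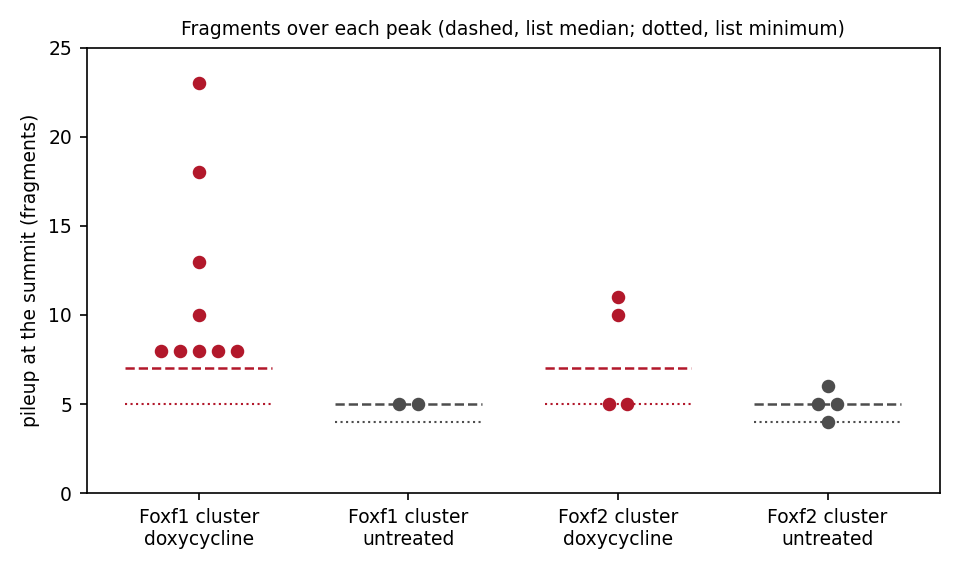
Fragments over each member peak. The y axis gives the pileup at the summit in fragments, 1 point per peak, for the chromosome 8 (Foxf1) and chromosome 13 (Foxf2) clusters in each list; dashed lines are the medians of the whole lists (7 and 5 fragments) and dotted lines their lowest values (5 and 4). The 9 doxycycline peaks of the Foxf1 cluster all lie above their list's median, at 8 to 23 fragments, and the untreated peaks of both clusters lie at 4 to 6.

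The paralogous cluster on chromosome 13 had 4 doxycycline peaks and 4 untreated peaks, over a window of 852 kb. The doxycycline peaks made up 0.110% of their list (0.0299 to 0.281%) and the untreated peaks 0.0913% of theirs (0.0249 to 0.234%). Of the 4 doxycycline peaks 2 had a −log10 q of at least 5, and of the 4 untreated peaks 0 did. No peak was shared between the lists here either, which for the same reason is not read as a trait of the region.

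Foxf2 held the one doxycycline peak inside a member gene, at chr13:31628286-31628494. It was enriched 7.97-fold with a −log10 q of 7.89 and 10 fragments, and its summit lay 2.59 kb inside the annotated start. The untreated list had a peak 8.76 kb upstream of the same start, at chr13:31616992-31617130, with 5.50-fold enrichment and 6 fragments, and the 2 summits were 11.4 kb apart. The other doxycycline peaks lay on the far side of Foxq1. The strongest, chr13:31276025-31276204, reached 8.69-fold with 11 fragments at 282.1 kb from Foxq1. Its neighbour chr13:31270997-31271136, at 4.09-fold and 287.1 kb, and chr13:31398407-31398544, at 4.39-fold and 159.7 kb, had 5 fragments each, the lowest pileup of the doxycycline list. The last of these fell inside the noncoding gene G630018N14Rik.

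Foxc1 and Foxq1 had no doxycycline summit within 50 kb. The nearest to Foxc1 was the peak inside Foxf2, 178.2 kb away, and the nearest to Foxq1 was the same peak, 67.4 kb away. Their nearest untreated summits were closer, at 77.1 kb from Foxc1 (3.93-fold, 4 fragments) and 24.0 kb from Foxq1 (4.72-fold, 5 fragments). The fourth untreated peak, chr13:32008027-32008161 at 4.72-fold, lay inside Gmds, an enzyme gene of fucose synthesis that neighbours Foxc1. A pileup of 4 fragments was enough to enter the untreated list, so the untreated peaks here rest on counts close to the smallest that could be called.

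**Figure D3:**
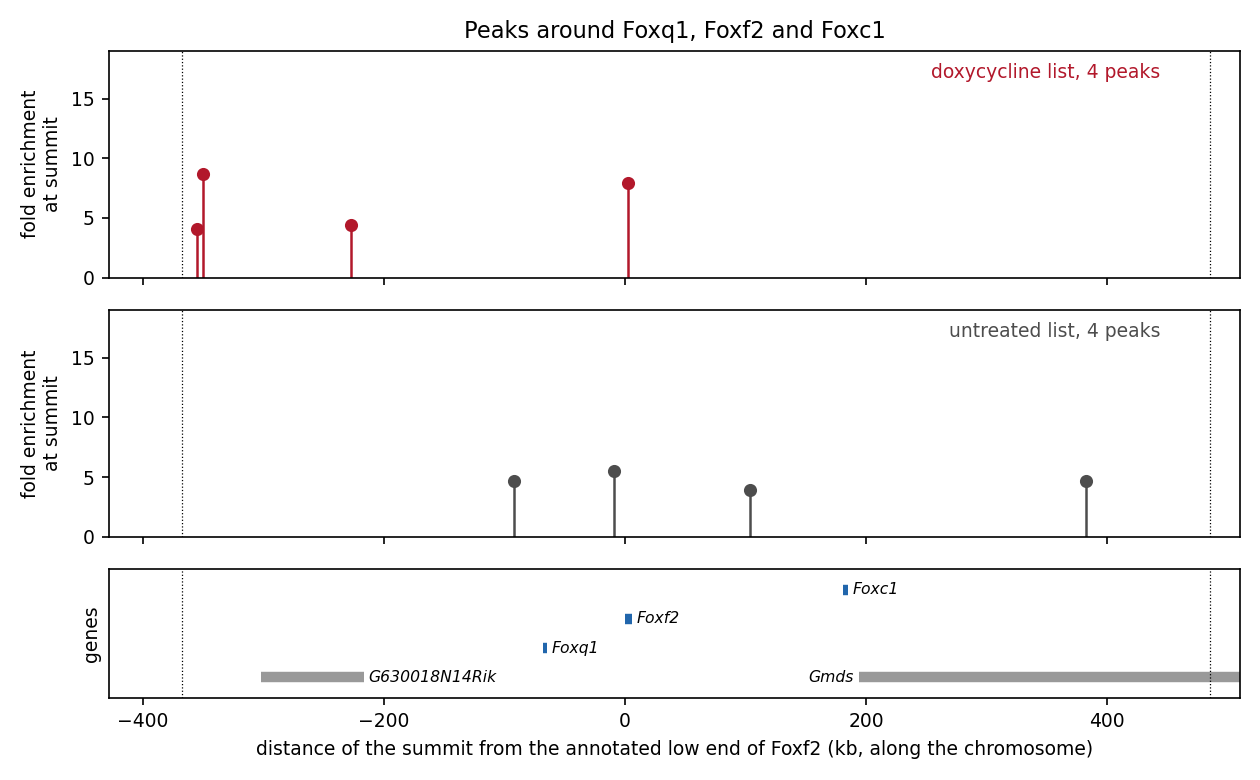
Peaks around the chromosome 13 cluster, drawn as for chromosome 8, with distance in kb from the low-coordinate end of Foxf2. The doxycycline list has 1 peak inside Foxf2 at 7.97-fold and 3 on the far side of Foxq1 at 4.09-fold to 8.69-fold, and the 4 untreated peaks, at 3.93-fold to 5.50-fold, are spread across the window.

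The start sites nearest to the 2 gene-proximal doxycycline peaks, those of Fendrr and Foxf2, are shown. Fendrr is not a paralogue of Foxf2. Relative to the paralogous genes, the chromosome 8 summit lay 3.56 kb outside Foxf1 and the chromosome 13 summit inside Foxf2, so no shared position is claimed. The windows run from 250 bases before to 50 after the annotated start (RefSeq, GRCm38.p6, the assembly of mm10), 5′ to 3′ on the strand of the gene. Fendrr is at chr8:121083061-121083360 on the minus strand and Foxf2 at chr13:31625566-31625865 on the plus strand. Capitals mark GTAAACA, a core sequence bound by forkhead proteins.
Fendrr: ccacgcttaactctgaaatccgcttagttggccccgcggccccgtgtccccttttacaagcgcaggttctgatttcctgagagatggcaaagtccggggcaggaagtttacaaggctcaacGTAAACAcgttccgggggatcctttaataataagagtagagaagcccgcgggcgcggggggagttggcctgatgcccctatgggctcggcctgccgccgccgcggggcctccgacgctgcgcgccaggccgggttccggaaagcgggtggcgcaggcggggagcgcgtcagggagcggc
Foxf2: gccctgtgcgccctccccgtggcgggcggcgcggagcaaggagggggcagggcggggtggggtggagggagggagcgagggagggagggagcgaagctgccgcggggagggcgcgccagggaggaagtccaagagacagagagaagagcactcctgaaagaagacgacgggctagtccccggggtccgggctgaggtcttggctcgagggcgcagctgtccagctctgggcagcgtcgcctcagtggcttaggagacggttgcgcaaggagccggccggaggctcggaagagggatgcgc
No peak of either list overlapped these windows, whose nearest doxycycline summits were 2.24 kb and 2.54 kb away. Such overlap was rare over all promoter windows, at 0.353% for the doxycycline list and 0.0274% for the untreated list. The GLI core GACCACCCA was searched on both strands and was found in neither, exactly or with 1 letter changed. Of all 32851 promoter windows searched, 0.253% held it exactly and 6.74% with at most 1 letter changed. The Fendrr window held GTAAACA once, from base 122 on the printed strand, and 3.65% of all windows held it on either strand. Windows of Mthfsd and Foxc1 were also in the table and held neither motif. Those of Foxf1, Foxc2, Foxl1 and Foxq1 were not analysed here, and neither was the sequence under the peaks. The windows were rich in G and C, at 64.7% in Fendrr and 71.3% in Foxf2, against a median of 52.7% over all windows.

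Set beside all genes, the chromosome 8 cluster stood at the upper end of the doxycycline list. The median gene had 1 doxycycline and 1 untreated summit within 300 kb, and 60.9% and 60.7% of genes had at least 1. Foxf1, Mthfsd, Foxc2 and Foxl1 each had the same 9 doxycycline summits, a number reached by 34 genes (0.155%), and 2 untreated summits, reached by 26.9%. An excess of at least 7 doxycycline over untreated summits, as here, was seen for 0.311% of genes. Those 34 genes fell into 4 neighbourhoods. One was the Foxf1 cluster, one held Ptch1, the Hedgehog receptor gene, with Fancc and Ercc6l2 (9 to 12 summits), one was Smad6, an inhibitor of BMP signalling (9 summits), and one was a stretch of 26 genes on chromosome 10 from Ptbp1 to Pwwp3a (9 to 11). With a −log10 q of at least 5, the Foxf1 cluster genes had 7, a number reached by 5 genes (0.0228%), the fifth being Ercc6l2 with 9. The 7 include peaks tied just above that level, at 5.34. Since the cluster was chosen by its peaks, these shares describe where it stands and test nothing.

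The chromosome 13 genes had fewer doxycycline summits than the chromosome 8 genes and more untreated summits. Foxq1 had 4 doxycycline and 3 untreated summits within 300 kb, Foxf2 had 2 and 3, and Foxc1 had 1 and 4. At least 4 doxycycline summits were reached by 5.24% of genes, and at least 4 untreated summits by 2.35%. Foxf2 and Foxc1 thus had fewer doxycycline than untreated summits, by 1 and 3 peaks of few fragments, and Foxq1 had more by 1. The untreated list is the longer, and how many of all genes had such differences is not given here.

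**Figure D4:**
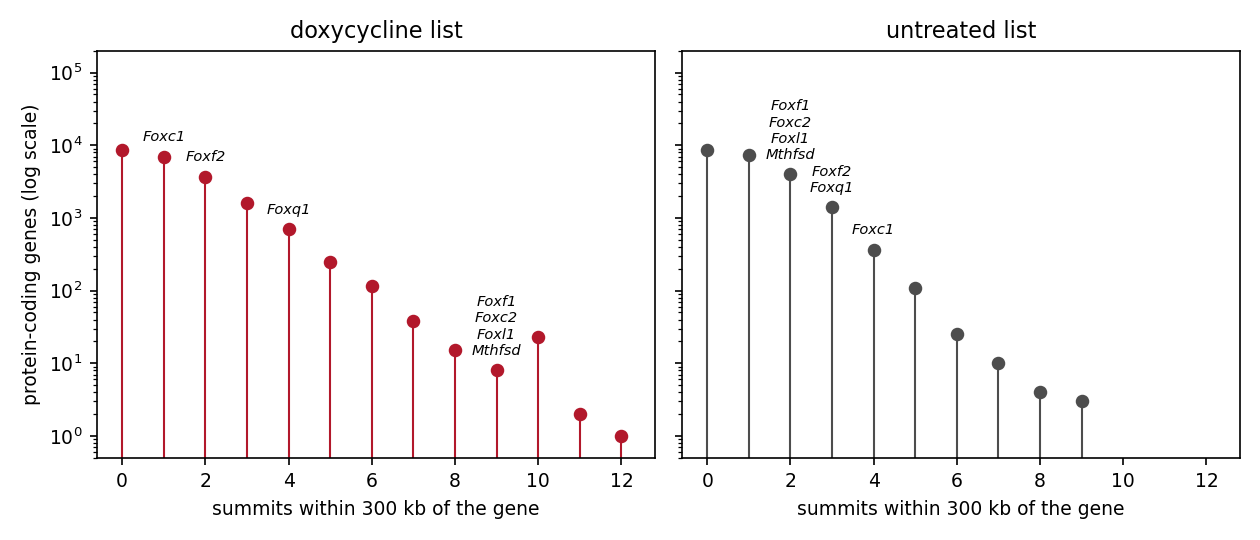
Summits within 300 kb of each of the 21887 protein-coding genes. The x axis gives the number of summits, the y axis (log scale) the number of genes with it, for the doxycycline list (left) and the untreated list (right), with the 7 members named at their counts. The 4 chromosome 8 genes share 9 doxycycline summits, where few genes lie, and 2 untreated summits, and the chromosome 13 genes have 1 to 4 in either list.

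Most of the doxycycline peaks chosen by the 300 kb rule lay over 100 kb from the genes. Much of each window lies that far from any member, and the share of all peaks at such distances is not given here. The distances are therefore not read as a trait of the regions. Of the 13 doxycycline peaks at both clusters, 10 lay over 100 kb from the nearest member, and of the 6 untreated peaks 2 did. Within 100 kb of a member there were 3 doxycycline and 4 untreated peaks, and within 50 kb 2 and 2. Counted by gene and not by peak, 31.3% of all genes had a doxycycline and 30.2% an untreated summit within 100 kb. At the Foxf1 cluster 8 of the 9 doxycycline summits were 99.2 kb or more from every member, and which gene any of them acts on was not measured.

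No forkhead gene outside the clusters reached the 9 doxycycline summits of the Foxf1 cluster. Only 0.155% of all genes reached that number, so its absence among 38 genes is not read as a trait of the family. Of the 38 forkhead genes outside both clusters, 7 (18.4%) lay within 50 kb of a doxycycline summit and 10 (26.3%) of an untreated summit, beside 20.0% and 18.8% of all genes. Within 300 kb their median was 1 summit in each list, and the highest doxycycline number was 4, at Foxs1, with 0 untreated. At that distance 17 of the 38 had more untreated than doxycycline summits, 11 had fewer and 10 had as many. The untreated list is the longer, with 4379 peaks against 3640, and the same split over all genes is not given here. The split is therefore not read as a trait of the family. By counts of doxycycline and untreated summits, 5 forkhead genes tied as nearest to Foxf1, each 7 summits away in all: Foxs1 (4 and 0), Foxa2 and Foxp4 (3 and 1 each), and Foxn1 and Foxo1 (2 and 2 each). For Foxf2, 5 genes tied at 1 summit away: Foxr1 (2 and 4), Foxd2 and Foxe3 (1 and 3 each), and Foxn1 and Foxo1 again. Foxd2 and Foxe3 are neighbours on chromosome 4. The likeness was taken over 2 numbers per gene.

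Among the 7, Foxo3, a factor of stress and survival responses, had the highest doxycycline peak, at 13.04-fold with 17 fragments and 41.8 kb away. An untreated peak inside Foxo3 stood at 5.50-fold. Foxn3 followed with 6.81-fold inside the gene, beside an untreated peak inside it at 4.72-fold, and Foxn2 with 6.58-fold at 22.0 kb and no untreated summit within 50 kb. The doxycycline peaks of Foxp1 (5.56-fold), Foxr1 (5.34-fold), Foxb2 (5.12-fold) and Foxj2 (4.68-fold) had 6 or 7 fragments, around the list's median. In the untreated list Foxn1, the thymus epithelium factor, had the highest, at 7.07-fold with 8 fragments and 42.9 kb away. Foxd3, a neural crest and pluripotency factor, had 2 untreated summits within 50 kb, the higher at 5.50-fold, and 0 in the doxycycline list, and Foxp1 had an untreated peak at 5.50-fold.

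**Figure D5:**
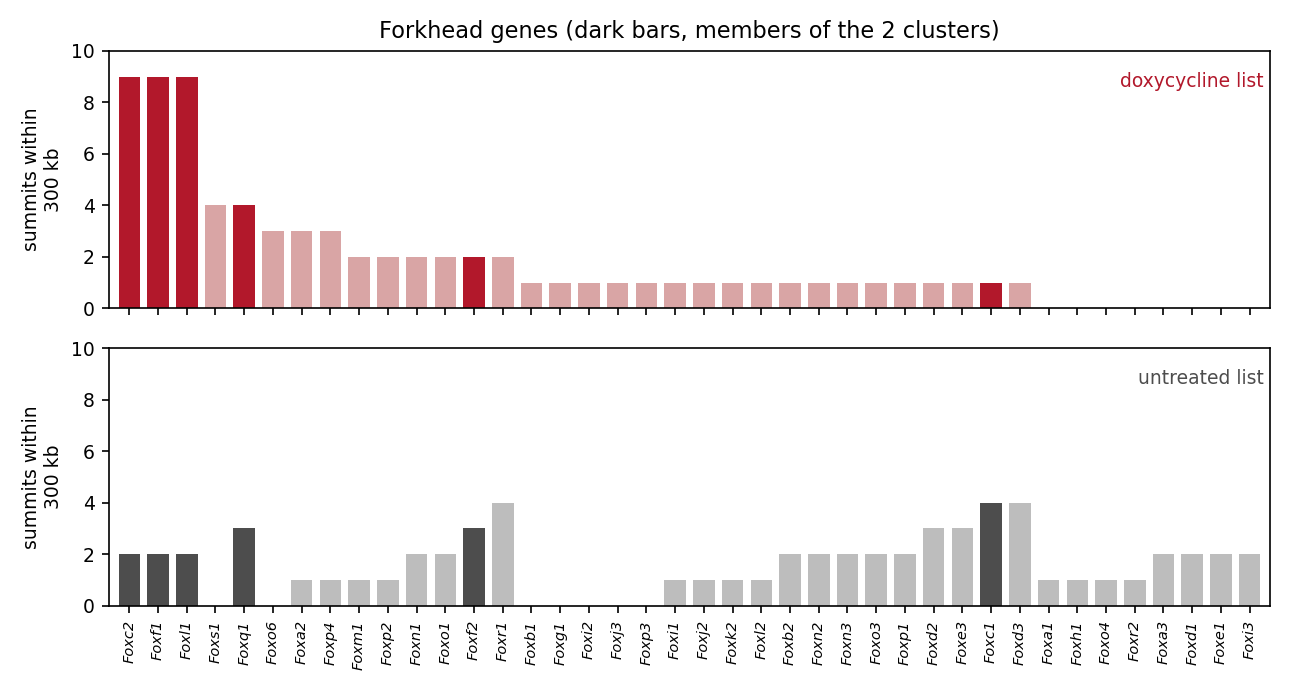
Summits within 300 kb of 40 forkhead genes that had any, with doxycycline (top) and without (bottom), ordered by the doxycycline number; bars start at 0 and dark bars are members of the 2 clusters. Foxf1, Foxc2 and Foxl1 share the same 9 doxycycline summits, and the other genes have 0 to 4 in either list.

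Genes of the splanchnic mesoderm and heart field, the tissue in which Foxf1 is known to act, were counted for comparison. Of 20 such genes, 7 (35.0%) lay within 50 kb of a doxycycline summit and 2 (10.0%) of an untreated summit, beside the 20.0% and 18.8% of all genes. Within 300 kb the lists gave the same share, 14 of 20 (70.0%) in each, with a median of 1 summit in each. The highest doxycycline peaks were at Hand2 (9.93-fold, 9.51 kb away), Gata6 (9.50-fold, inside the gene), Osr1 (7.97-fold, inside) and Isl1 (6.95-fold, inside), all transcription factors of early heart or lateral mesoderm. These 4 had no untreated summit within 50 kb. The untreated summits were at Wnt2 (4.72-fold), a signal of the early lung and heart mesoderm, and at Hand1 (4.54-fold), a heart factor whose doxycycline peak stood at 6.26-fold. As a check of the pull-down, Ptch1 had 6 and Gli1 had 1 doxycycline summit within 50 kb, and both had 0 in the untreated list. Within 300 kb Ptch1 had 9 doxycycline and 0 untreated summits, and Gli1 had 1 and 2.

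At the edges of the 300 kb rule, the nearest doxycycline peak left out was 35.2 kb beyond the chromosome 8 window, at 8.04-fold with 10 fragments, and the kept one nearest to an edge was the 10.2-fold peak, 43.4 kb inside the opposite edge. At chromosome 13 the doxycycline peak nearest to an edge was the 4.09-fold one, 12.9 kb inside, and the next one outside was 291.4 kb away at 7.90-fold. The nearest untreated peak left out was 16.8 kb beyond the chromosome 13 window, at 4.72-fold, and the kept one nearest to that edge was the peak in Gmds, also at 4.72-fold, 102.5 kb inside.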

How the data were processed

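The data were 2 ChIP-seq peak lists, 1 per condition, grouped by the sample titles. Bowtie2 2.3.2, SAMtools 1.5, MACS2 2.1.1 and mm10 were used, per the submitters' processing notes; caller settings, the use of inputs and any pooling of pull-downs are not stated there. The fold enrichment (a ratio), the −log10 p and the −log10 q of each peak are the values the authors deposited, and each describes a peak within its own list.

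Rows sharing an interval were merged (3725 to 3640 and 4428 to 4379). Pileup and local expectation were worked back from the deposited fold and −log10 p, assuming fold = (pileup + 1) / (expectation + 1) and a Poisson p. Pileups matched within 0.01 of −log10 p for 99.8% of peaks in both lists, and for all 19 here. Library totals were not analysed here, so depth is unknown and heights are not compared between lists. Gene intervals (protein-coding, GRCm38.p6, RefSeq) carry no exons. Distances run from summit to interval, 0 inside, and coordinates count from 1. No test was made, since there is 1 list per condition.

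The members, gene lists and motifs were chosen with earlier results of these data known. Besides all 7 members, up to 8 forkhead genes (4 for untreated) and 4 splanchnic genes per list were named by the highest −log10 q within 50 kb, and 3 each by likeness to Foxf1 and Foxf2, with genes tied with those 3 named after their values were seen. All 44 forkhead and 20 splanchnic genes were found. Steps were checked on simulated data. The software was matplotlib 3.10.9, scipy 1.17.1, pandas 2.3.3 and numpy 2.4.6 under Python 3.11.15.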

Additional observations from a re-analysis of the deposited data

How the results depend on the processing

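No paired analysis was possible because the pull-downs of a condition are represented by 1 common peak list, and for the same reason no replicate could be left out. Counts are of few peaks, so small changes move them. Counting every row, placing peaks by their midpoint, asking for a pileup of at least 5 fragments and widening the distance to 500 kb kept all counts at the clusters within 1.5 times. With a −log10 q of at least 5, the chromosome 13 cluster had 2 doxycycline peaks, and the untreated counts were 0 at both clusters, at chromosome 8 and at chromosome 13. Among the top 1000 peaks with ties kept (1163 doxycycline and 1428 untreated), chromosome 13 had 2 doxycycline peaks, and the untreated counts were 1 in all, 0 at chromosome 8 and 1 at chromosome 13. Within 100 kb there were 3 doxycycline peaks in all, 2 at chromosome 8 and 1 at chromosome 13, and 1 untreated peak at chromosome 8. The order of the lists over both clusters turned there, with 3 doxycycline against 4 untreated peaks. Forkhead genes with a doxycycline summit numbered 11 within 50 kb, 6 within 10 kb, 18 within 100 kb and 7 with a −log10 q of at least 5. Those with an untreated summit numbered 12, 4, 21 and 1. Fewer or more peaks pass by construction of these settings. At the clusters no peak was shared with summits up to 500 bp apart, and the share over all peaks is not given here. None of the 3 member promoters searched held the GLI core with 1 letter changed. Absence from a list says only that the calling threshold was missed.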
